A study of Mus musculus with 18 samples.

Results

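The intercalated cell acid-base genes are 10 mouse genes taken by name from a deposited table of 32285 genes: Atp6v1b1, Atp6v1g3, Atp6v0d2, Atp6v1c2 and Atp6v0a4, which encode subunits of the vacuolar proton pump (V-ATPase), the anion exchanger genes Slc4a1, Slc4a9 and Slc26a4, the transcription factor gene Foxi1 and the aquaporin gene Aqp6. All 10 were found in the table and all 10 passed the filter on low counts. They were measured by RNA sequencing in 18 libraries of microdissected kidney from male C57BL/6 iKspCre-Pkd1del mice. The region types were cystic tissue with high signal of the macrophage protein F4/80 (F4/80-high), cystic tissue with low signal (F4/80-low) and non-cystic tissue, with 6 libraries each. Every region type was taken from the same 3 kidneys, with 2 libraries per kidney and region type. All 3 region types carried the same genotype and treatment. A kidney-specific Cre recombinase that tamoxifen switches on removed exons 2 to 11 of Pkd1, and tamoxifen at 12.5 mg/kg was given on postnatal days 18 and 19. Kidneys were taken at a mild cystic stage, at a labelled age of 269 for kidneys 1 and 3 and 297 for kidney 2, with no unit stated. Non-cystic tissue is therefore also tissue of induced Pkd1 knockout kidneys, and no kidney without the deletion was compared here. The labels do not say whether the 3 kidneys came from separate mice. The p-values weigh the differences between region types against their variation across these kidneys, with the level of each kidney taken out. They do not measure a spread between mice. Library totals ran from 5366651 to 9188813 counts.

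Intercalated cells lie between the principal cells of the connecting tubule and collecting duct and move acid or base between urine and blood. In the acid-secreting (alpha) type the V-ATPase pumps protons into the urine while the exchanger encoded by Slc4a1 (AE1) returns bicarbonate to the blood. In the bicarbonate-secreting (beta) type the exchanger pendrin, encoded by Slc26a4, sits on the urinary side and Slc4a9 (AE4) on the blood side. Foxi1 is the transcription factor that mice need to form intercalated cells. The pump has a membrane part, V0, and a cytosolic part that splits ATP, V1, and several subunits exist in a broadly expressed form and in a form concentrated in intercalated cells and a few other cell types.

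Promoter sequence is shown for 3 members because Foxi1 is a forkhead factor and has been reported to act on genes of this kind. The letters TGTTTA, a core of forkhead binding sites, were searched on both strands (TAAACA on the other) in the 250 bases before each annotated start in RefSeq (build GRCm38.p6). Of the 10 members 7 had an entry, namely Atp6v1b1, Atp6v1g3, Atp6v1c2, Atp6v0a4, Slc26a4, Foxi1 and Aqp6. Only Atp6v1b1 held the motif, 1 time, with its first base 98 bases before the start, and the motif was found in 12% of all 32851 windows of this length. The stretches below run 5′ to 3′ and end 31 bases before the start. The motif is in capitals. They are Atp6v1b1, the member with a match (chr6:83742767-83742986, plus strand), Slc26a4 (chr12:31560015-31560234, minus strand) and Atp6v0a4 (chr6:38124617-38124836, minus strand). Slc26a4 had the largest estimated fold difference between F4/80-high and non-cystic tissue. Atp6v0a4 was the member whose pattern was least like that of the others. A match of these letters is a description and not a binding site.
Atp6v1b1: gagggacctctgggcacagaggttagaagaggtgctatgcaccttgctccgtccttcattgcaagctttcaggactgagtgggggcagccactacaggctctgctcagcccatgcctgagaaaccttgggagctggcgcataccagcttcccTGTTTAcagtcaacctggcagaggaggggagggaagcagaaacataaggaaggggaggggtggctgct
Slc26a4: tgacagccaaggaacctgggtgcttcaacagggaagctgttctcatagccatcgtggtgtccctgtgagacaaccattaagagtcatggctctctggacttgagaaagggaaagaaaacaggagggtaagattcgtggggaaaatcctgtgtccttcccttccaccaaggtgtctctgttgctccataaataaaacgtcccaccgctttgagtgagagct
Atp6v0a4: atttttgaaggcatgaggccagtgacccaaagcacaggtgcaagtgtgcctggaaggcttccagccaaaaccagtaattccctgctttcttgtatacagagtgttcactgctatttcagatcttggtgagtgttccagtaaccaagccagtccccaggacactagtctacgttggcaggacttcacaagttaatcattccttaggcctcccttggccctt

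A pair of libraries stood apart from the rest. In F4/80-low kidney 3 replicate 2, Foxi1, Slc26a4 and Aqp6 had 0 counts and Slc4a9 had 1 count. Atp6v0d2 had 3 counts and Atp6v1g3 had 9 counts there. Slc4a1 had 10 counts and Atp6v1c2 had 12 counts, against 0 and 15 counts in replicate 1 of that kidney and region type. In F4/80-high kidney 3 replicate 1, Foxi1, Slc26a4 and Aqp6 also had 0 counts, Atp6v1g3 had 1 count, Slc4a1 and Atp6v1c2 had 2 counts each and Slc4a9 had 8 counts. A count of 0 allows a level of up to 0.449 CPM (counts scaled to library size by the trimmed mean of M values) in the F4/80-low library and 0.301 CPM in the F4/80-high library, by counting error alone. The summed level of the 7 members other than Atp6v0a4, Atp6v1b1 and Atp6v0d2 was 1.3 CPM in that F4/80-high library, 4.79 CPM in that F4/80-low library and 47.8 to 880.2 CPM in the other 16 libraries. Both libraries were also low in principal cell genes, with a summed level of 40.6 CPM in the F4/80-high library and 23.7 CPM in the F4/80-low library, against 76.1 to 396.5 CPM in the other 16. The water channel gene of principal cells, Aqp2, was at 0 CPM in the F4/80-high library and at 0.599 CPM in the F4/80-low library. Low Aqp2 was not limited to this pair, with 1.43 CPM in F4/80-high kidney 1 replicate 1 and 4.54 CPM in F4/80-high kidney 3 replicate 2. Aqp3 was at 0 CPM in F4/80-high kidney 3 replicate 1 as well. Other genes of the principal cell list kept counts there, with Gata3 at 17.3 CPM, Fxyd4 at 8.73 CPM and Avpr2 at 4.52 CPM.

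Not every member was near 0 in these libraries. In the F4/80-low library Atp6v0a4 had 1479 counts (221.4 CPM) and Atp6v1b1 had 165 counts (24.7 CPM), both close to the partner library of the same kidney and region at 220.7 CPM and 22.5 CPM. In the F4/80-high library Atp6v0d2 had 208 counts (20.9 CPM), Atp6v0a4 had 278 counts (27.9 CPM) and Atp6v1b1 had 119 counts (11.9 CPM). Genes of other tubule segments had counts in both libraries, and the sums of both lists that follow were the lowest of all 18 libraries in the F4/80-high one. The distal convoluted and connecting tubule genes summed to 217.7 CPM in the F4/80-high library and 1192 CPM in the F4/80-low library, against 223.8 to 7627 CPM in the other 16. The proximal tubule acid-base genes summed to 251.5 CPM in the F4/80-high library and 2234 CPM in the F4/80-low library, against 452.5 to 3069 CPM in the other 16. Results are given with all libraries and, for the calls, without this pair, a choice made after seeing the data.

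**Figure D1:**
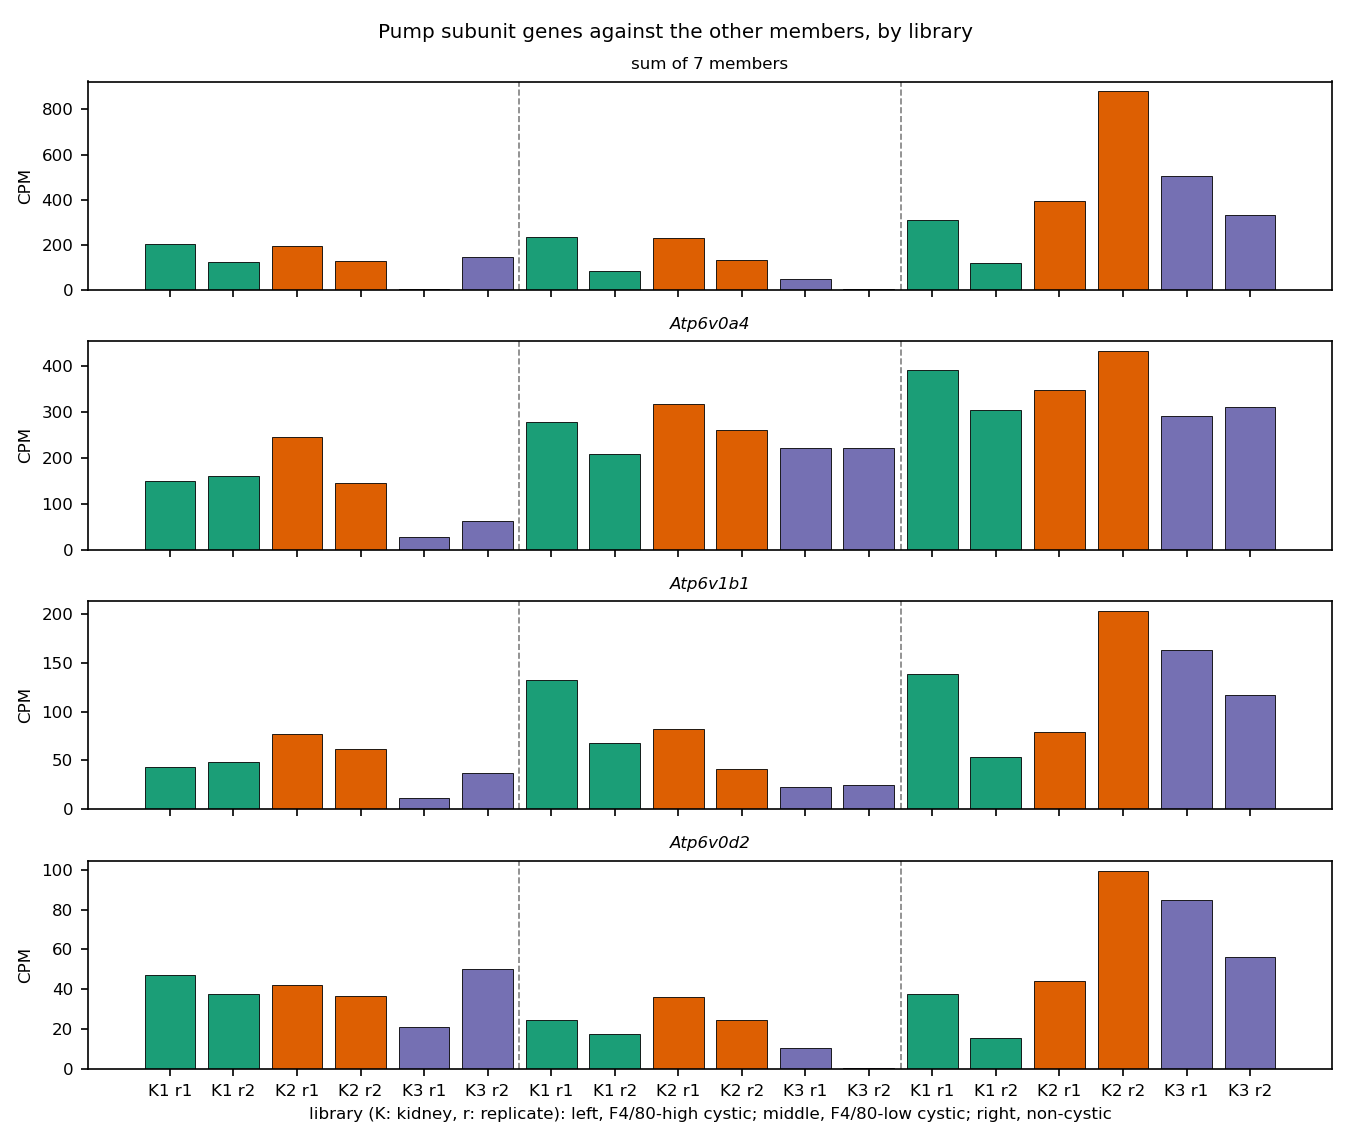
Each bar is 1 of 18 libraries, coloured by kidney, and the vertical axes are CPM from 0. The sum of 7 members, chosen after the values were seen, is close to 0 in F4/80-high kidney 3 replicate 1 (1.3 CPM) and F4/80-low kidney 3 replicate 2 (4.79 CPM), while Atp6v0a4, Atp6v1b1 and, in the F4/80-high library only, Atp6v0d2 keep levels above 10 CPM there.

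Of the 10 members, 6 were lower in F4/80-high cystic than in non-cystic tissue, and the other 4 had log2 fold changes below 0 that did not pass the test. The pump subunit genes Atp6v1c2, Atp6v0a4 and Atp6v1b1 and all 3 anion exchanger genes fell, by 3.09-fold (Atp6v0a4) to 8.57-fold (Slc26a4). In F4/80-low tissue 1 member, Atp6v1c2, was lower than in non-cystic tissue, 5.12-fold. Between the cystic region types 1 member, Atp6v0a4, was lower in F4/80-high than in F4/80-low tissue, 2.24-fold. These calls are from edgeR's quasi-likelihood test on 9 sums, 1 per kidney and region type, with the kidney as a block and Benjamini-Hochberg adjusted p below 0.05 over 16034 genes.

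The background of these counts differed strongly between comparisons. In F4/80-high against non-cystic tissue, 19.5% of all genes tested were called lower and 19.7% higher, beside the 6 of 10 members called lower. In F4/80-low against non-cystic tissue, 0.0249% of genes (4 genes) were called lower and 1.51% higher. In F4/80-high against F4/80-low tissue, 14% were called lower and 10.3% higher. The median log2 fold change of the members was -1.77 in F4/80-high against non-cystic tissue, beside 0.04 over all genes tested. It was -1.93 in F4/80-low against non-cystic tissue, beside 0.00 over all genes. It was -0.41 in F4/80-high against F4/80-low tissue, beside 0.04 over all genes. Both comparisons with non-cystic tissue share the same non-cystic sums. No member was called higher in any of the 3 comparisons by edgeR, DESeq2 or an unadjusted p below 0.05 in edgeR (0 in each). DESeq2 on the same sums set 9 members below non-cystic tissue in F4/80-high tissue and 7 in F4/80-low tissue, and 1 lower in F4/80-high than in F4/80-low tissue. Over all genes DESeq2 called 3150, 74 and 2298 lower in these comparisons, in that order.

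Without the pair of kidney 3 libraries, the same 6 members were called lower in F4/80-high than in non-cystic tissue, with a median of -1.49 over the 10 members. Atp6v1c2 was again the 1 member lower in F4/80-low tissue, and Atp6v0a4 the 1 member lower in F4/80-high than in F4/80-low tissue. Over all genes 3113, 10 and 2184 were called lower in these comparisons, in that order. Leaving out only the F4/80-low library gave 9 members lower in F4/80-high than in non-cystic tissue, and leaving out only the F4/80-high library gave 4. The number was 3 without non-cystic kidney 2 replicate 2 and 9 without non-cystic kidney 1 replicate 2. With these single libraries left out, 3171, 3064, 3110 and 3025 of all genes were called lower, in that order. In bulk tissue, fewer intercalated cells and less RNA per cell cannot be told apart.

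**Figure D2:**
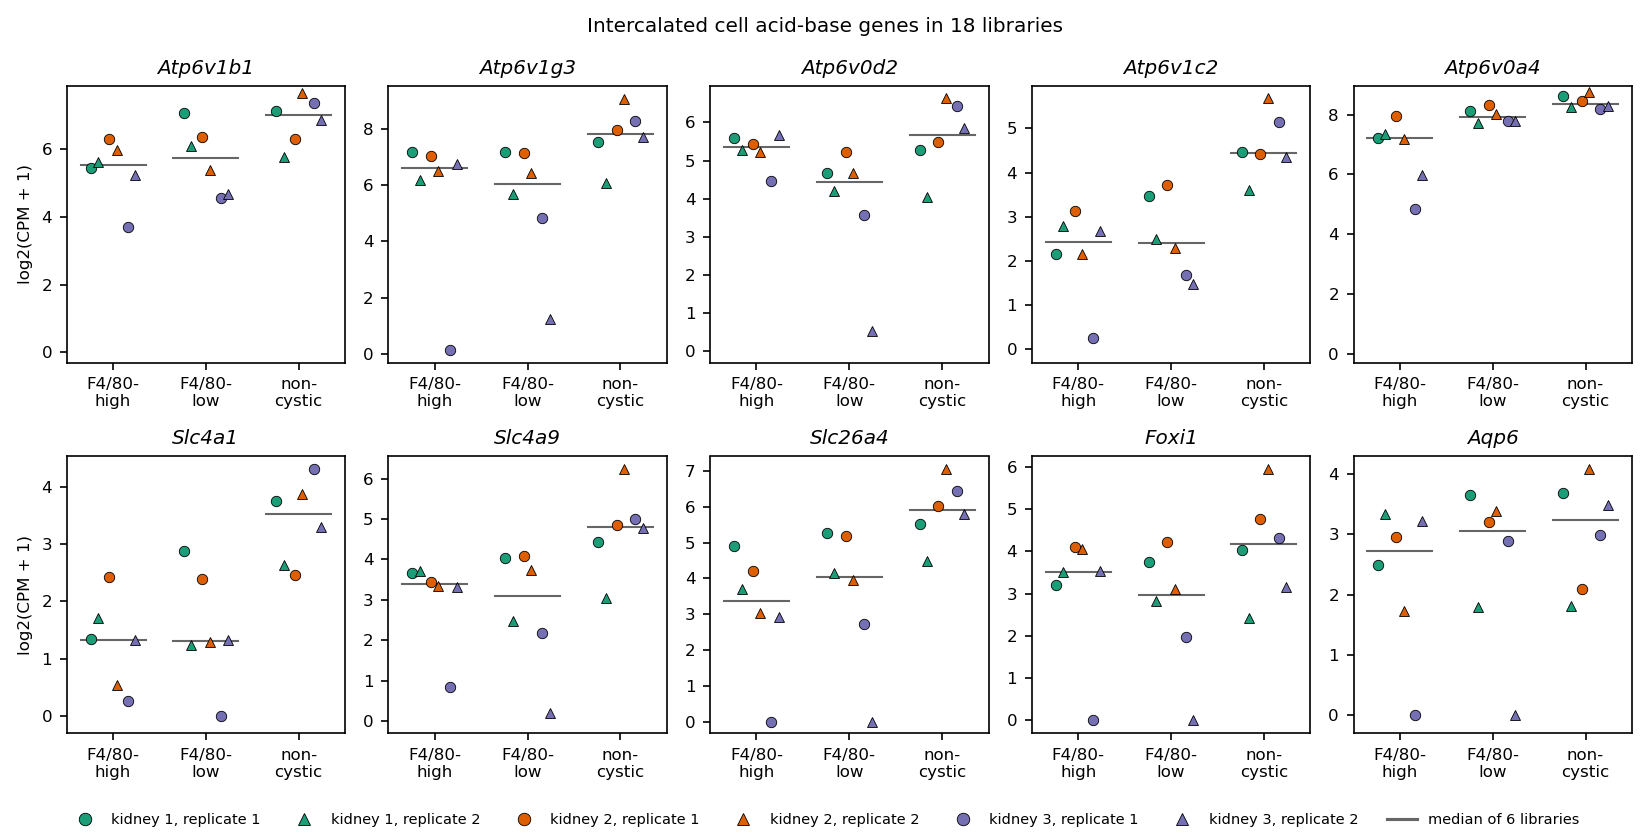
Each panel shows 1 gene as log2(CPM + 1) in 18 libraries, grouped by region type, with colour for the kidney, shape for the replicate and a line at the median of 6 libraries. The points at 0 for Slc26a4, Foxi1 and Aqp6 are F4/80-high kidney 3 replicate 1 and F4/80-low kidney 3 replicate 2.

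**Figure D3:**
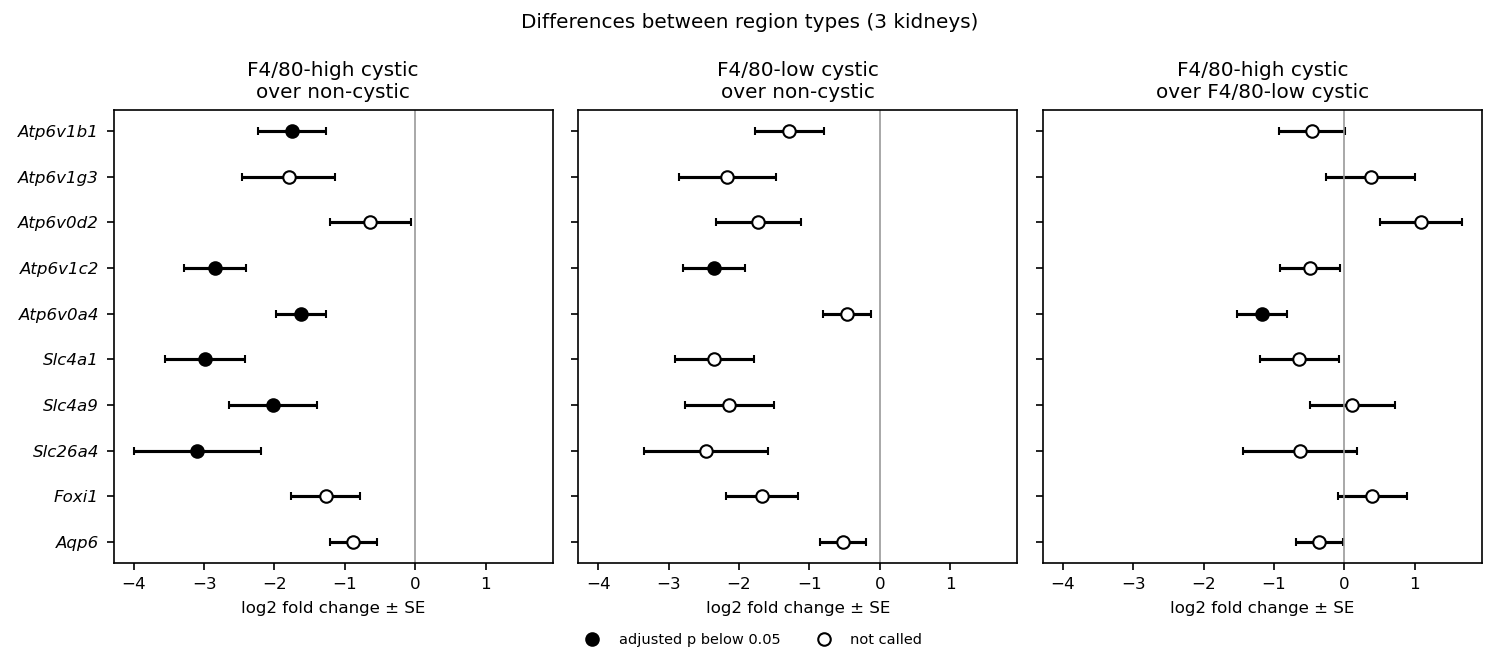
Points are edgeR log2 fold changes with their SE for the 10 members in 3 comparisons of region types, filled where the adjusted p is below 0.05. All 10 points lie below 0 in both comparisons with non-cystic tissue, while 6 lie below and 4 above 0 between F4/80-high and F4/80-low tissue.

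Below, the levels of a region type are CPM of the summed libraries for kidneys 1, 2 and 3 in that order, and fold changes are log2 values with the SE of the fit over 3 kidneys. Genes are placed on GRCm38 by the GENCODE vM21 annotation.

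Among the V1 subunits, Atp6v1c2 (chr12:17284721-17329359, minus strand) encodes C2, the form of the stalk subunit C with narrow expression. It was at 4.52, 5.40 and 2.49 CPM in F4/80-high tissue, 7.48, 8.60 and 2.03 CPM in F4/80-low tissue and 16.4, 38.7 and 29.5 CPM in non-cystic tissue. Every sum of cystic tissue was below every sum of non-cystic tissue, and the cystic types overlapped each other. Relative to non-cystic tissue the log2 fold change was -2.84 ± 0.44 in F4/80-high (adjusted p = 0.00151) and -2.36 ± 0.44 in F4/80-low tissue (adjusted p = 0.0390). The difference between F4/80-high and F4/80-low tissue was -0.49 ± 0.43 (adjusted p = 0.444). The call in F4/80-high tissue held in all 32 alternatives of processing and left-out libraries. The call in F4/80-low tissue was lost in 13 of them, among them total counts (adjusted p = 0.0832) and no kidney block (adjusted p = 0.0762). It was lost without kidney 1 (adjusted p = 0.104) or kidney 2 (0.221), and without any of 8 single libraries. These were replicate 1 of non-cystic kidney 1 (0.114), replicate 2 of non-cystic kidney 2 (0.0857) and kidney 3 (0.0575), replicate 2 of F4/80-low kidney 1 (0.103) and kidney 2 (0.137), replicate 1 of F4/80-low kidney 3 (0.073), replicate 1 of F4/80-high kidney 1 (0.0548) and replicate 2 of F4/80-high kidney 3 (0.255). An exon of Atp6v1c2 overlaps Pdia6 on the other strand by 50 bases, and the library kit does not mark the strand, so its counts are uncertain by what Pdia6 could add.

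Atp6v1b1 (chr6:83742990-83758855, plus strand) encodes B1, the kidney and inner ear form of the B subunit of the ATP-splitting head, which is mutated in a form of human distal renal tubular acidosis. It was at 44.6, 68.4 and 22.9 CPM in F4/80-high tissue, 101.5, 64.2 and 24.0 CPM in F4/80-low tissue and 97.1, 153.8 and 148.1 CPM in non-cystic tissue. The F4/80-high sums lay below all non-cystic sums. In kidney 1 the F4/80-low sum was level with the non-cystic one (a log2 ratio of 0.06), and in kidney 3 it lay 2.63 log2 units below (a log2 ratio of -2.63). On the log2 scale the difference was -1.75 ± 0.48 in F4/80-high (adjusted p = 0.0254) and -1.29 ± 0.49 in F4/80-low tissue (adjusted p = 0.358), both against non-cystic tissue. The F4/80-high call was lost without kidney 2 (adjusted p = 0.0725) and without replicate 1 of non-cystic kidney 1 (0.0867), replicate 2 of non-cystic kidney 2 (0.109) or replicate 2 of F4/80-low kidney 1 (0.0516), and with total counts (0.122) or no filter (0.131).

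Atp6v1g3 (chr1:138273738-138289462, plus strand) encodes G3, the kidney form of the G subunit. It was at 107.0, 106.8 and 46.4 CPM in F4/80-high tissue, 97.6, 115.2 and 14.6 CPM in F4/80-low tissue and 125.3, 421.3 and 274.7 CPM in non-cystic tissue. All cystic sums lay below all non-cystic sums, yet in kidney 1 the gap was small, with a log2 ratio to non-cystic tissue of -0.23 in F4/80-high and -0.36 in F4/80-low tissue. A log2 fold change of -1.80 ± 0.66 in F4/80-high tissue (adjusted p = 0.0730) and of -2.17 ± 0.69 in F4/80-low tissue (adjusted p = 0.268) did not pass. The F4/80-high difference passed without kidney 1 (adjusted p = 0.0411), without replicate 2 of non-cystic kidney 1 (0.0368), replicate 2 of F4/80-low kidney 3 (0.0332) or replicate 1 of F4/80-high kidney 1 (0.0484), with the compared region types alone (0.0355) and in DESeq2 (0.000906). DESeq2 also called the F4/80-low difference (adjusted p = 0.000404).

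Of the V0 subunits, Atp6v0a4 (chr6:38048483-38124586, minus strand) encodes a4, the kidney form of the large a subunit, which is known in proximal tubule as well as in intercalated cells. It was at 151.2, 188.7 and 42.6 CPM in F4/80-high tissue, 246.4, 294.0 and 224.8 CPM in F4/80-low tissue and 355.0, 404.3 and 299.3 CPM in non-cystic tissue. The 3 region types did not overlap, and F4/80-high was lowest and non-cystic highest in each kidney. The log2 fold change was -1.63 ± 0.36 in F4/80-high against non-cystic tissue (adjusted p = 0.00617), a call held in all 32 alternatives. It was -0.46 ± 0.34 in F4/80-low against non-cystic tissue (adjusted p = 0.719). It was -1.17 ± 0.35 in F4/80-high against F4/80-low tissue (adjusted p = 0.0398), and this call was lost in 10 alternatives. Those were total counts (adjusted p = 0.0941), no kidney block (0.111), the compared region types alone (0.0917), kidney 1 (0.117) or kidney 2 (0.0623) left out, and 5 single libraries left out. The libraries were replicate 1 of non-cystic kidney 1 (0.0519), replicate 1 of F4/80-low kidney 2 (0.0659), and replicate 2 of F4/80-high kidney 1 (0.0501), kidney 2 (0.104) and kidney 3 (0.0891). Atp6v0a4 has exon overlaps with Tmem213 on the other strand (62 bases) and with D630045J12Rik on the same strand, so its counts are uncertain.

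The acid-base genes of the proximal tubule moved beside Atp6v0a4. Of the 8, 7 fell in F4/80-high against non-cystic tissue and 7 in F4/80-high against F4/80-low tissue, among them Car14 (-3.70 ± 0.44, adjusted p = 0.000559 against non-cystic tissue) and the sodium-proton exchanger gene Slc9a3 (-2.26 ± 0.31, adjusted p = 0.000680). In F4/80-low against non-cystic tissue 0 were called by edgeR and 0 by DESeq2, with 0 at an unadjusted p below 0.05. Their summed level was 336.8 to 735.3 CPM in F4/80-high, 1782 to 1993 CPM in F4/80-low and 2065 to 2845 CPM in non-cystic tissue. Their part in the Atp6v0a4 result was not tested. Car14 has exon overlaps with Aph1a on the other strand (445 bases), so its counts are uncertain.

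Atp6v0d2 (chr4:19876841-19922605, minus strand) encodes d2, a form of the d subunit known from intercalated cells, osteoclasts and macrophages. It was at 41.7, 38.7 and 33.4 CPM in F4/80-high tissue, 21.2, 31.2 and 5.79 CPM in F4/80-low tissue and 27.0, 77.8 and 75.6 CPM in non-cystic tissue. The 3 F4/80-high sums lay close together. Each F4/80-high sum lay above each F4/80-low sum, and both cystic types overlapped non-cystic tissue. No difference passed: -0.64 ± 0.58 in F4/80-high against non-cystic (adjusted p = 0.428), -1.72 ± 0.61 in F4/80-low against non-cystic (adjusted p = 0.331) and 1.09 ± 0.58 in F4/80-high against F4/80-low tissue (adjusted p = 0.227). Of the alternatives, DESeq2 called the difference of F4/80-low from non-cystic tissue (-1.77, adjusted p = 0.00598) and limma voom on 18 libraries that between the cystic types (1.66, adjusted p = 0.0499).

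Macrophages and osteoclasts also use Atp6v0d2, so their genes are given beside it. The cystic region types were set apart by F4/80 signal, and Adgre1, the F4/80 gene, is among the macrophage genes. Higher macrophage genes in F4/80-high tissue were therefore partly set by that choice. All 10 macrophage genes were higher in F4/80-high than in non-cystic tissue (median log2 fold change 4.42) and all 10 higher than in F4/80-low tissue (median 2.55). In F4/80-low against non-cystic tissue 3 were higher (median 1.92). The Atp6v0d2 estimates had the opposite sign to these medians in both comparisons with non-cystic tissue and the same sign between the cystic types, and none of them passed. The summed level of the macrophage genes was 1959 to 5492 CPM in F4/80-high, 376.3 to 464.1 CPM in F4/80-low and 95.0 to 123.7 CPM in non-cystic tissue. Of 6 osteoclast genes 3 could be tested. Ctsk (3.48 ± 0.50, adjusted p = 0.0013) and Calcr (1.80 ± 0.53, adjusted p = 0.0227) were higher, and Acp5 (-1.36 ± 0.19, adjusted p = 0.000602) was lower, in F4/80-high than in non-cystic tissue. In F4/80-high kidney 3 replicate 1, Foxi1 was at 0 counts and Atp6v0d2 had 208 counts (20.9 CPM). There the macrophage genes summed to 5098 CPM and Gpnmb, a lysosomal glycoprotein gene of macrophages, was at 55.2 CPM. In F4/80-low kidney 3 replicate 2, where Atp6v0d2 had 3 counts, they summed to 172.4 CPM and Gpnmb was at 0.15 CPM. The highest Atp6v0d2 level of all libraries, 99.5 CPM in non-cystic kidney 2 replicate 2, stood beside a macrophage sum of 146.9 CPM. The part of macrophages and osteoclasts in the Atp6v0d2 values was not tested.

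Of the anion exchangers, Slc4a1 (chr11:102348824-102366203, minus strand) encodes AE1, which alpha intercalated cells and red blood cells both use. It was at 1.84, 2.23 and 0.773 CPM in F4/80-high tissue, 3.94, 3.02 and 0.752 CPM in F4/80-low tissue and 8.93, 10.0 and 15.6 CPM in non-cystic tissue. All cystic sums lay below all non-cystic sums. The log2 fold change was -2.99 ± 0.57 in F4/80-high against non-cystic tissue (adjusted p = 0.0036), held in all 32 alternatives. It was -2.35 ± 0.57 in F4/80-low against non-cystic tissue (adjusted p = 0.0958), and passed without kidney 3 (adjusted p = 0.042), without replicate 1 of F4/80-low kidney 1 (0.024) and in DESeq2 (0.000364). Its counts were few, with 2 to 40 per library in F4/80-high tissue and 0 to 48 in F4/80-low tissue.

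Erythroid genes are given beside Slc4a1 because red blood cells also use it, and their order over the kidneys differed from that of Slc4a1. The log2 ratio of F4/80-high to non-cystic tissue for Hbb-bs was -3.80, -2.28 and -0.46 in kidneys 1, 2 and 3. For Slc4a1 it was -2.28, -2.17 and -4.34. Of 8 erythroid genes 6 were tested. The haemoglobin genes Hba-a1, Hba-a2, Hbb-bs and Hbb-bt and the haem synthesis gene Alas2 fell in F4/80-high against non-cystic tissue, with Hbb-bs at -2.21 ± 0.59 (adjusted p = 0.0202), and Epb42 was higher (1.90 ± 0.65, adjusted p = 0.0426). The haemoglobin copies are near-identical and their split is uncertain. Their summed level was 41.6 to 305.9 CPM in F4/80-high, 197.9 to 1414 CPM in F4/80-low and 427.6 to 1566 CPM in non-cystic tissue. The F4/80-low comparison with non-cystic tissue called 0 of 6 in edgeR, with 0 at an unadjusted p below 0.05 and 0 in DESeq2. Their part in the Slc4a1 result was not tested. Alas2 has exon overlaps with Apex2 and Mir3620 on the other strand (372 bases), so its counts are uncertain.

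Slc26a4 (chr12:31519827-31559969, minus strand) is the pendrin gene of beta and non-alpha, non-beta intercalated cells. Its estimated fold difference in F4/80-high against non-cystic tissue was the largest of the members. The estimates of Slc4a1 (-2.99 ± 0.57) and Atp6v1c2 (-2.84 ± 0.44) lay within 1 SE of it, so this rank is uncertain. Slc26a4 was at 20.4, 11.8 and 2.87 CPM in F4/80-high tissue, 27.5, 26.1 and 2.93 CPM in F4/80-low tissue and 33.5, 104.8 and 75.8 CPM in non-cystic tissue. All cystic sums lay below all non-cystic sums. The difference ran from a log2 ratio of -0.71 in kidney 1 to -4.72 in kidney 3 for F4/80-high against non-cystic tissue. Relative to non-cystic tissue the log2 fold change was -3.10 ± 0.90 in F4/80-high (adjusted p = 0.0390) and -2.47 ± 0.88 in F4/80-low tissue (adjusted p = 0.353). The F4/80-high call was lost in 11 alternatives, with total counts (adjusted p = 0.0737), no filter (0.142), no kidney block (0.0644), the compared region types alone (0.0589), without kidney 2 (0.304) or kidney 3 (0.154), and without 5 single libraries. These were replicate 2 of non-cystic kidney 2 (0.0676), replicate 2 of F4/80-low kidney 2 (0.0556), replicate 1 of F4/80-low kidney 3 (0.0643), and replicates 1 (0.0546) and 2 (0.0747) of F4/80-high kidney 3.

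Slc4a9, the AE4 gene, was at 11.6, 9.36 and 4.36 CPM in F4/80-high tissue, 10.1, 14.5 and 1.88 CPM in F4/80-low tissue and 14.1, 56.3 and 29.7 CPM in non-cystic tissue. The F4/80-high sums lay below all non-cystic sums, and F4/80-low overlapped both other types. The fitted difference (log2) was -2.03 ± 0.63 in F4/80-high (adjusted p = 0.0413) and -2.14 ± 0.63 in F4/80-low tissue (adjusted p = 0.230) against non-cystic tissue. The F4/80-high call was lost in 12 alternatives, with adjusted p up to 0.231 (without kidney 2), and also without kidney 3 (0.136). Single libraries that ended it were replicate 1 of non-cystic kidney 1 (0.101), replicate 2 of non-cystic kidney 2 (0.0828), replicate 2 of F4/80-low kidney 1 (0.0587), replicate 1 of F4/80-low kidney 3 (0.0907), and replicates 1 (0.0974) and 2 (0.0564) of F4/80-high kidney 3. Upper quartile factors (0.0518), total counts (0.113), no filter (0.173) and no kidney block (0.0661) also ended it, and DESeq2 called the F4/80-low difference (0.000592).

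Foxi1 (chr11:34204338-34208089, minus strand) was at 8.99, 15.7 and 4.64 CPM in F4/80-high tissue, 9.38, 13.3 and 1.50 CPM in F4/80-low tissue and 9.90, 47.2 and 15.3 CPM in non-cystic tissue. The non-cystic sums were spread widely and both cystic types overlapped them. In kidney 1 the 3 region types were nearly level, with a log2 ratio to non-cystic tissue of -0.14 in F4/80-high and -0.08 in F4/80-low tissue. Neither difference passed, with -1.27 ± 0.49 in F4/80-high (adjusted p = 0.0733) and -1.67 ± 0.51 in F4/80-low tissue (adjusted p = 0.221). The F4/80-high difference passed without kidney 1 (adjusted p = 0.03), without replicate 2 of non-cystic kidney 1 (0.0162), replicate 1 of F4/80-low kidney 1 (0.0381) or replicate 2 of F4/80-low kidney 3 (0.0226), with the compared region types alone (0.0246) and in DESeq2 (0.013), which also called the F4/80-low difference (0.00507).

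Aqp6 (chr15:99601400-99605477, plus strand), a channel of intracellular vesicles in alpha intercalated cells, was at 6.57, 4.31 and 3.65 CPM in F4/80-high tissue, 7.14, 8.87 and 3.31 CPM in F4/80-low tissue and 7.25, 10.9 and 8.08 CPM in non-cystic tissue. The F4/80-high sums lay just below all non-cystic sums and F4/80-low overlapped non-cystic tissue. The log2 fold change of -0.88 ± 0.33 in F4/80-high (adjusted p = 0.0590) and of -0.52 ± 0.33 in F4/80-low tissue (adjusted p = 0.641) against non-cystic tissue did not pass. The F4/80-high difference passed without replicate 2 of non-cystic kidney 1 (adjusted p = 0.013), replicate 1 of non-cystic kidney 2 (0.0383), replicate 2 of F4/80-low kidney 3 (0.0373) or replicate 2 of F4/80-high kidney 1 (0.034), with no filter (0.043) and in DESeq2 (0.045).

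The kidneys did not contribute evenly. In kidney 1 the log2 ratios of F4/80-low to non-cystic tissue ran from -0.53 to 0.06 in 8 members, beside -1.14 for Atp6v1c2 and -1.18 for Slc4a1. In kidney 3 the same ratios were -3.35 or lower for 7 members (Atp6v1g3, Atp6v0d2, Atp6v1c2, Slc4a1, Slc4a9, Slc26a4 and Foxi1), beside -2.63 for Atp6v1b1, -1.29 for Aqp6 and -0.41 for Atp6v0a4. Within the library pairs of 1 kidney and region type the members moved together in several pairs. All 10 were higher in replicate 2 of non-cystic kidney 2, with a median log2 difference of 1.26, and all 10 were lower in replicate 2 of non-cystic kidney 1, with a median of -1.32. In F4/80-high kidney 3 the median was 3.76, and in F4/80-low kidney 3 it was -4.04 (CPM with 0.1 added).

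Between F4/80-high and F4/80-low tissue, members other than Atp6v0a4 had adjusted p-values of 0.227 or more. The log2 fold change was above 0 for Atp6v0d2, Foxi1 (0.40 ± 0.49), Atp6v1g3 (0.37 ± 0.63) and Slc4a9 (0.11 ± 0.61). It was below 0 for Slc4a1 (-0.64 ± 0.56), Slc26a4 (-0.63 ± 0.81), Atp6v1c2, Atp6v1b1 (-0.46 ± 0.47) and Aqp6 (-0.36 ± 0.33). The SE of these values is close to or above the difference itself except for Atp6v0d2, and a p-value that misses the threshold does not show that the region types were alike.

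Per kilobase of exon, the levels of the members spanned a wide range in each region type. In non-cystic tissue Atp6v1g3 was highest, at 145.1 ± 78.4 CPM per kb (SD, n = 3 kidneys), ahead of Atp6v0a4 at 71.0 ± 10.6, Atp6v1b1 at 30.4 ± 7.13, Slc26a4 at 23.0 ± 11.5 and Atp6v0d2 at 22.1 ± 10.6 CPM per kb. Atp6v1c2 at 13.0 ± 5.15, Foxi1 at 10.2 ± 8.55, Slc4a9 at 5.21 ± 3.33, Aqp6 at 3.61 ± 0.790 and Slc4a1 at 2.36 ± 0.733 CPM per kb came after them. Neighbours in this order differed by less than the larger SD of the pair except Atp6v0a4 and Atp6v1b1, and Aqp6 and Slc4a1. In F4/80-high tissue Atp6v1g3 (46.0 ± 18.5) and Atp6v0a4 (25.6 ± 15.3 CPM per kb) were again the highest, with Atp6v0d2 next at 14.0 ± 1.54 CPM per kb. In F4/80-low tissue Atp6v0a4 came first at 51.3 ± 7.12 CPM per kb and Atp6v1g3 second at 40.2 ± 28.5 CPM per kb. Slc4a1 was the lowest of the 10 in all 3 region types.

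Each pump subunit member has a broadly expressed partner that fills the same place in the pump, and the member's share of the pair, per kilobase, differed by subunit. C2 made up 7.61, 9.11 and 5.99% of C2 plus C1 in F4/80-high tissue, 11.3, 13.4 and 3.17% in F4/80-low tissue and 19.9, 38.8 and 31.7% in non-cystic tissue, with no overlap between cystic and non-cystic tissue. G3 averaged 12.7 ± 3.02% of G3 plus G1 in F4/80-high, 10.6 ± 7.30% in F4/80-low and 23.8 ± 11.0% in non-cystic tissue (SD, n = 3 kidneys). B1 averaged 28.9 ± 8.16% of B1 plus B2 in F4/80-high, 25.5 ± 12.7% in F4/80-low and 39.2 ± 7.63% in non-cystic tissue. The G and B shares overlapped between region types. The d2 share was 24.4 ± 2.26% in F4/80-high, 9.99 ± 6.26% in F4/80-low and 24.2 ± 10.6% in non-cystic tissue. The a4 form made up 96.0, 94.5 and 75.1% of a4 plus a1 in F4/80-high tissue, 95.6, 96.0 and 94.6% in F4/80-low tissue and 97.1, 96.9 and 97.0% in non-cystic tissue, so the pair was mostly a4 in all 3 region types. This is a share of the pair and not of the whole a subunit, because the forms a2 (Atp6v0a2) and a3 (Tcirg1) are left out. In F4/80-high kidney 3 these were at 19.1 and 28.5 CPM, beside 18.7 CPM for Atp6v0a1 and 42.6 CPM for Atp6v0a4, not divided by length.

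**Figure D4:**
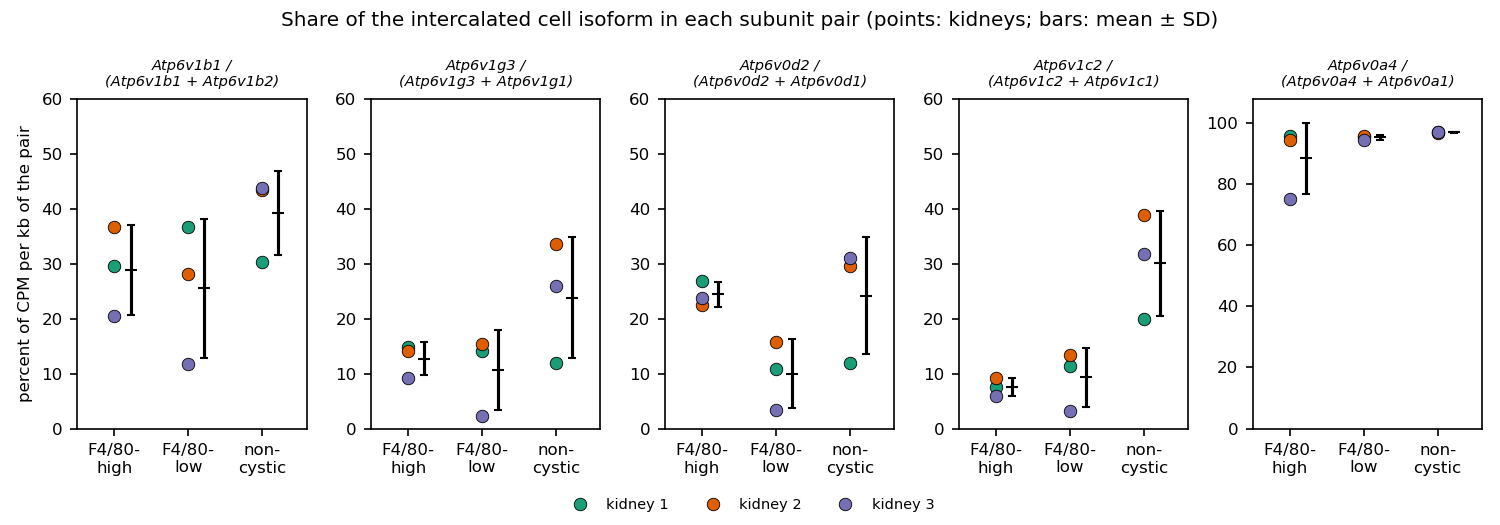
Each panel shows the percent of a subunit pair's CPM per kb that the intercalated cell form takes, for 3 kidneys per region type, with the mean and SD beside the points. The C2 share is 5.99 to 9.11% in F4/80-high, 3.17 to 13.4% in F4/80-low and 19.9 to 38.8% in non-cystic tissue, and the a4 share is above 90% in every kidney and region type except F4/80-high kidney 3 (75.1%).

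The partners were also tested as genes of their own. Atp6v1b2 (-0.97 ± 0.20, adjusted p = 0.0039) and Atp6v0d1 (-0.64 ± 0.16, adjusted p = 0.0118) fell in F4/80-high against non-cystic tissue. Atp6v1g1 (-0.57 ± 0.23, adjusted p = 0.0752), Atp6v1c1 (-0.38 ± 0.19, adjusted p = 0.152) and Atp6v0a1 (-0.09 ± 0.26, adjusted p = 0.808) did not pass. None of these 5 passed in F4/80-low against non-cystic tissue, with 0 in edgeR, 0 of the whole list in DESeq2 and log2 fold changes from -0.45 (Atp6v1g1) to 0.17 (Atp6v0a1).

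Of all 19 V-ATPase subunit and accessory genes outside the members, 9 fell and 1 rose in F4/80-high against non-cystic tissue, with a median log2 fold change of -0.57. The ATP-splitting A subunit gene Atp6v1a was at 162.0, 207.7 and 129.9 CPM in F4/80-high and at 416.9, 479.4 and 539.4 CPM in non-cystic tissue (-1.53 ± 0.25, adjusted p = 0.00131). The stalk subunit gene Atp6v1e1 (-1.26 ± 0.23, adjusted p = 0.0026) and the ring subunit gene Atp6v0c (-0.89 ± 0.21, adjusted p = 0.00786) fell too. The gene that rose was Tcirg1, the a3 form known from osteoclasts and lysosomes (1.19 ± 0.30, adjusted p = 0.0119), which lies outside the naming rule and was named after its value was seen. None of the 19 (0) was called by edgeR in F4/80-low against non-cystic tissue, with 1 lower at an unadjusted p below 0.05 (Atp6ap2, -0.56 ± 0.19) and 0 in DESeq2. In F4/80-high against F4/80-low tissue 4 were called lower. Atp6v1e1 has exon overlaps with Slc25a18 on the other strand (32 bases), so its counts are uncertain.

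The other 17 genes linked to intercalated cells split in direction. Among them 7 fell and 2 rose in F4/80-high against non-cystic tissue, with a median of -0.77. The carbonic anhydrase genes Car15 (-1.99 ± 0.30, adjusted p = 0.00108) and Car12 (-2.27 ± 0.48, adjusted p = 0.00834) and the transcription factor gene Hmx2 (-2.61 ± 0.57, adjusted p = 0.0101) fell, as did the ammonia transporter genes Rhbg and Rhcg, with Rhcg at -2.37 ± 0.69 (adjusted p = 0.0356). P2ry14, a receptor for nucleotide sugars, rose (1.99 ± 0.48, adjusted p = 0.00946), at 13.6, 10.9 and 9.89 CPM in F4/80-high and at 1.24, 4.10 and 3.18 CPM in non-cystic tissue. The other gene that rose, Slc26a7, a chloride-bicarbonate exchanger of acid-secreting cells, stayed at or below 1.05 CPM in every sum. Car2, the cytosolic carbonic anhydrase, was at 455.9, 464.0 and 362.6 CPM in F4/80-high and at 406.2, 542.6 and 535.1 CPM in non-cystic tissue and was not called. In F4/80-low against non-cystic tissue 0 of the 17 were called in edgeR, with 7 lower at an unadjusted p below 0.05 and 6 lower in DESeq2, and the smallest p-values were those of Rhbg (-2.61 ± 0.71) and Oxgr1 (-2.20 ± 0.67). Slc26a7 and Car2 were named after their values were seen, and Car15 and Rhbg overlap an exon of another gene on the same strand.

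Genes of the neighbouring segments were counted the same way in F4/80-high against non-cystic tissue. Of 11 distal convoluted and connecting tubule genes 9 fell, with Pvalb lowest (-9.41 ± 0.68, adjusted p = 0.000102) and a median of -2.27. Pvalb had 7 counts in all of F4/80-high tissue, at 0, 0.347 and 0 CPM in kidneys 1, 2 and 3, so the size of its fold change is uncertain. Of 8 thick ascending limb genes 5 fell, with a median of -1.75, among them the cotransporter gene Slc12a1 (-2.06 ± 0.32, adjusted p = 0.00127). Of 9 principal cell genes tested 1 fell, the water channel gene Aqp3 (-3.90 ± 0.80, adjusted p = 0.0102), with a median of -1.10. At an unadjusted p below 0.05, 5 of the 9 principal cell genes were lower, and DESeq2 called 5 of them lower. The distal convoluted and connecting tubule list had 9 lower by either count and the thick ascending limb list 6. Of these lists 0 genes were called by edgeR in F4/80-low against non-cystic tissue. The median there was -1.31 in the distal convoluted and connecting tubule list, -0.71 in the principal cell list and -0.01 in the thick ascending limb list, beside -1.93 in the members. At an unadjusted p below 0.05 the lower genes numbered 6, 0 and 1, with 1 higher in the last list, and DESeq2 called 2, 2 and 0 lower.

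**Figure D5:**
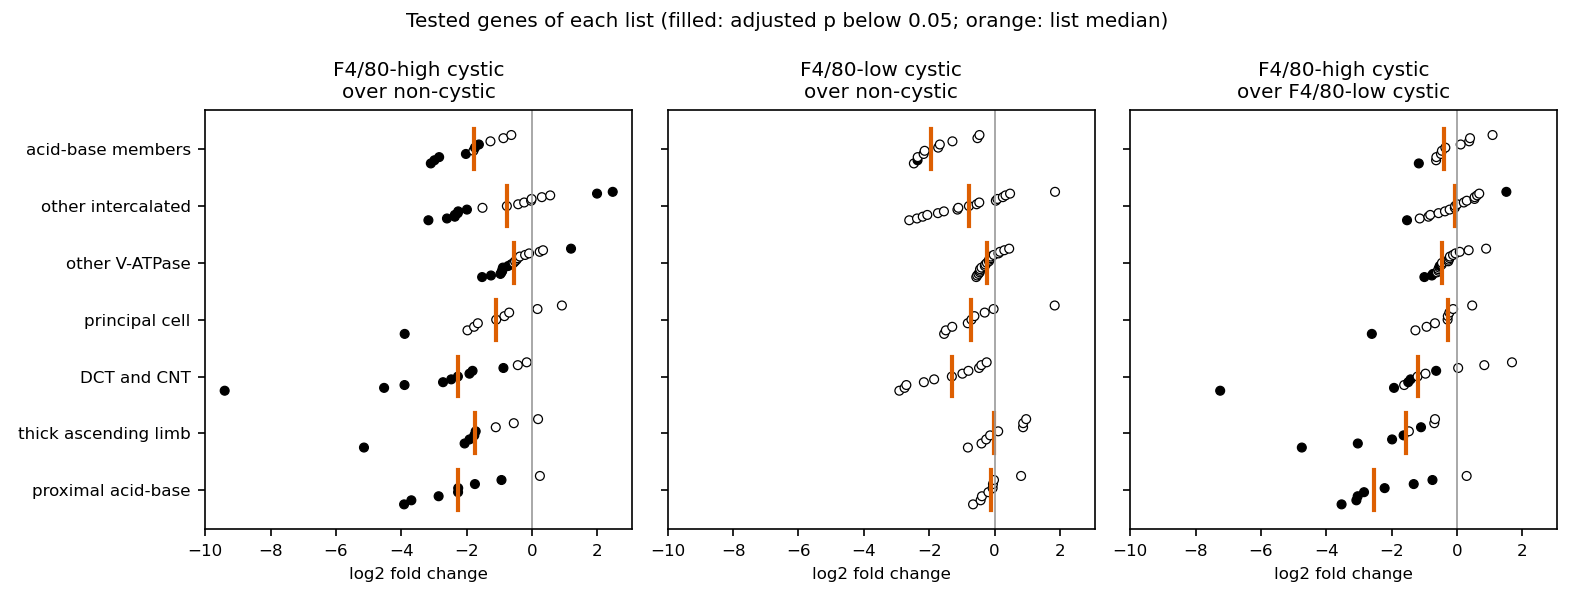
Points are log2 fold changes of the tested genes of 7 gene lists in 3 comparisons of region types, filled where the adjusted p is below 0.05, with the list median in orange. In F4/80-high against non-cystic tissue every list median lies below 0, and in F4/80-low against non-cystic tissue the members have the lowest median (-1.93) and 1 filled point, Atp6v1c2.

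The genes most like the members were taken as those whose log2 CPM over the 9 sums, centred on its own mean, had the smallest root mean square difference from the median profile of the members, among 11691 genes. They were Hsd11b2 (0.32 log2 units), which shields the mineralocorticoid receptor from glucocorticoids, Scnn1g (0.33), the gamma subunit of the epithelial sodium channel, Hepacam2 (0.37), Tmem52 (0.42), Rhcg (0.43) and Tmem61 (0.44). Hsd11b2 and Scnn1g are in the principal cell list and Hepacam2 and Rhcg in the intercalated cell list. Hsd11b2 was at 27.4, 25.4 and 7.57 CPM in F4/80-high, 36.2, 30.1 and 8.05 CPM in F4/80-low and 35.3, 60.4 and 72.8 CPM in non-cystic tissue. In this ranking the members themselves ran from place 1 (Slc4a9) to place 254 (Atp6v0a4). The 9 sums share kidneys and library pairs, and kidney 3 holds both low libraries, so likeness is a description of these sums.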

How the data were processed

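RNA of 18 libraries was sequenced. The authors deposited raw counts that were not normalized, and per the submitters' processing notes the build was mm10 (GRCm38) and FastQC 0.11.9, fastp 0.20.1 and HTSeq 0.11.0 were used, without stated roles. The aligner, the annotation and whether counting used strand: not given in the sources used here. Rows without a symbol held 0.00837% of counts. The members, lists and the rule for named genes (all members; per other list up to 4 genes with the smallest p in F4/80-high and 2 in F4/80-low against non-cystic tissue; subunit partners; the 6 most alike genes) were chosen with earlier results of these data known.

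Each pair of libraries from 1 kidney and region type was added up, which gave 9 sums. The model was edgeR 4.0.16 under R 4.3.3 (TMM scaling, filterByExpr, robust quasi-likelihood test, kidney as block, 4 residual degrees of freedom), with Benjamini-Hochberg adjustment over 16034 genes and calls at adjusted p below 0.05. The SE is the size of the log2 fold change divided by the root of its F statistic. Sums with the same number come from the same kidney by the labels, and their deviations correlated across genes with r from -0.154 to 0.275. No pair of libraries was identical. Alternatives used other scalings, filters, DESeq2 1.42.0, limma 3.58.1, no block and left-out libraries or kidneys.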

Additional observations from a re-analysis of the deposited data

Results flagged for a closer look

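A single library lay far from the other 5 of its region type in 2 of the 30 sets of 6 libraries examined (10 members in 3 region types), and chance alone gives such a flag in about 1 of 20 sets. Slc4a9 was at 0.803 CPM in F4/80-high kidney 3 replicate 1, where the nearest other F4/80-high library was at 8.95 CPM. Slc4a9 was at 74.8 CPM in non-cystic kidney 2 replicate 2, where the nearest other non-cystic library was at 31.2 CPM.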

How the results depend on the processing

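Over 32 alternatives, the calls of Atp6v1c2, Atp6v0a4 and Slc4a1 in F4/80-high against non-cystic tissue held in all, and every member kept a log2 fold change below 0 in both comparisons with non-cystic tissue. The number of members called lower in F4/80-high against non-cystic tissue (6) was 3 with total counts and 3 to 9 with a kidney or library left out. Over all genes it was 1463 with total counts and 1622 to 3275 with a kidney or library left out. In F4/80-low against non-cystic tissue (1) the number of members was 0 with total counts, 7 with DESeq2, 0 without the kidney block, 0 with the compared region types alone and 0 to 2 with a kidney or library left out. Over all genes these were 1, 74, 4, 28 and 0 to 29, in that order. In F4/80-high against F4/80-low tissue (1) the number of members was 0 with total counts, 0 without the kidney block, 0 with the compared region types alone and 0 to 1 with a kidney or library left out. Over all genes these were 1120, 2274, 1293 and 521 to 2441, in that order. The kidney block also set calls among single members: without it Slc26a4 (adjusted p = 0.0644) and Slc4a9 (adjusted p = 0.0661) were not called in F4/80-high against non-cystic tissue, which left 4 members. Over all genes 3139 were called lower there without the block.

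Directions changed only between F4/80-high and F4/80-low tissue. With a kidney or library left out the log2 fold change ran from -1.01 to 0.10 for Aqp6, from -0.78 to 0.024 for Atp6v1b1, from -0.36 to 0.80 for Atp6v1g3, from -0.15 to 0.76 for Foxi1 and from -0.25 to 0.58 for Slc4a9. It was 0.12 for Aqp6 with total counts, -0.16 for Atp6v1g3 with limma voom and -0.066 for Slc4a9 without the block. Total counts moved the median of all genes to 0.65 and that of the members to -1.19 in F4/80-high against non-cystic tissue, to 0.13 and -1.79 in F4/80-low against non-cystic tissue, and to 0.52 and 0.05 between the cystic types. The cause of these changes was not tested. Depth limits the precision of members with few counts, such as Slc4a1, with 0 to 48 counts per cystic library, and Foxi1, Slc26a4 and Aqp6 also reached 0 counts in cystic libraries.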
